A study of Mus musculus with 3 samples.

Results

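Matrix proteoglycans and fibulins were examined in EpH4-PR cells. EpH4 is an epithelial line from the mouse mammary gland, and EpH4-PR cells stably express a transfected A isoform of the progesterone receptor (PR). The 10 genes, of 29273 gene names on the array, were 5 small leucine-rich proteoglycans (Dcn, Bgn, Lum, Fmod and Ogn) and 5 fibulins (Efemp1, Efemp2, Fbln1, Fbln2 and Fbln5). Every array probe that carries one of these gene names was taken, which gave 13 of 41174 probes, and matching by RefSeq accession added 0 further probes. The set was chosen by gene family and on the measured log2 ratio of Efemp1, which lies among the lowest on these arrays, so the ratios below are a description and no test is given for them. The data were 3 Agilent whole mouse genome arrays, on which Cy5 carried EpH4-PR RNA and Cy3 a commercial reference RNA (Stratagene mouse standard), without a dye swap. The cells grew in DMEM with 10% FBS to about 75% confluence, no hormone treatment is given in the labels, and neither the vector promoter that drives PR nor whether the arrays hold separate cultures is stated in the sources used here. EpH4-EV cells, which carry the empty vector, were not analysed here, so the ratios set EpH4-PR cells against the reference RNA, and none of them measures an effect of PR.

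Small leucine-rich proteoglycans are secreted proteins built of leucine-rich repeats that bind collagen fibrils, set their diameter and spacing, and hold growth factors in the matrix; most carry chondroitin, dermatan or keratan sulfate chains. Fibulins are secreted glycoproteins with strings of calcium-binding EGF-like modules that join elastic fibres and basement membranes. In the mammary gland and other organs, fibroblasts of the connective tissue are the main known source of decorin, lumican and several fibulins, while epithelium rests on the basement membrane below it.

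RefSeq start sites on GRCm38.p6 gave promoter windows for 8 of the 10 genes, 12 windows in all, each of the 250 bases before a start. Shown are the windows of Efemp1, the gene with the lowest ratio, and of Bgn, a proteoglycan much closer to the reference RNA. Also shown is that of Fbln2, the gene with the brightest EpH4-PR spot. They are examples and do not cover the range of the values below evenly. Capitals mark matches, on either strand, to the motifs searched: the TATA box, the CCAAT box, the GC box, the AP-1 site, the E-box of Zeb and Snail factors and the hexamer of hormone response elements, whose letters are given with the counts after the windows. Overlapping matches of a motif were merged in the capitals. The Efemp1 window is chr11:28852955-28853204, the Bgn window chrX:73483351-73483600 and the Fbln2 window chr6:91212514-91212763, each on the plus strand.
Efemp1: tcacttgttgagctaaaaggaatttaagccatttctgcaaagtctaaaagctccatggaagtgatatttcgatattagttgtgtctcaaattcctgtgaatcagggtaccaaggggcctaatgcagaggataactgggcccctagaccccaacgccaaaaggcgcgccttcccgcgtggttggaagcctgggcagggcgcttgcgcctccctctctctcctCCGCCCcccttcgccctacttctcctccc
Bgn: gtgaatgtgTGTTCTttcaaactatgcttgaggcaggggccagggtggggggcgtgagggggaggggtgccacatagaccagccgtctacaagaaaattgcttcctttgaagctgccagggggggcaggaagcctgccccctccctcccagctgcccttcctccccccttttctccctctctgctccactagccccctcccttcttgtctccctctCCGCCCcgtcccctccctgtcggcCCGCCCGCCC
Fbln2: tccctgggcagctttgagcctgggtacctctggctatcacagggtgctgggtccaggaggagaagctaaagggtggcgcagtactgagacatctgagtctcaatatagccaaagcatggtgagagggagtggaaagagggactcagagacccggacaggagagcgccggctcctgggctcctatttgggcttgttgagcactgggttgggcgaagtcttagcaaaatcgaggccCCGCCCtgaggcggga

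The GC box GGGCGG, which Sp factors bind, was found in all 3 of these windows. It was found in 8 of the 12 member windows, where 32.7% of all 32851 windows hold it. Those member windows belong to 6 of the 8 genes, and some windows of the same gene overlap. The hormone response hexamer TGTTCT, a part of the elements that PR can bind, was found in 1 window each of Bgn and Fbln1, and 16.1% of all windows hold it. The TATA box TATAAA was found among the members only in the window of Ogn, against 12.4% of all windows. The CCAAT box was found only in 1 window of Fbln5, against 33.8% of all windows. The AP-1 site TGACTCA was found in 0 member windows, where 4.46% of all windows hold it. The E-box CACCTG was found in 0 as well, where 17.2% of all windows hold it. G and C made up 42% (Ogn) to 78.8% (the third window of Efemp2) of the member windows, and the median of all windows was 52.4%. A match is a description of these letters and not a binding site.

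Ratios are given as log2 of EpH4-PR over reference RNA after correction for local background and loess normalization, with the SD over the 3 arrays. A probe is described as well above background where the scanner software flags its spot so, and as called where the log2 ratio was at least 1 in size and the p from limma, Benjamini-Hochberg adjusted over all probes, was under 0.05. The labels number the arrays as replicates, and their SD may be technical only. Over all probes, 932 were called higher and 1578 lower, and the split was 3125 and 3905 with a normexp offset of 0, 3616 and 3887 with the log ratio of the scanner software, and 7031 and 708 under median centring. The median log2 ratio of all probes was -0.01. The median negative control spot read 57.3 to 74.1 in the EpH4-PR channel and 91.8 to 121 in the reference channel. The Pgr gene itself had 2 probes, at log2 ratios of -0.11 and -0.19, and neither was called. Each had 1 EpH4-PR spot and 2 reference spots well above background. Whether either probe lies in the transfected sequence is not given in the sources used here, so they do not check the label.

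All 13 member probes had a mean log2 ratio below 0, from -5.47 to -0.07, with a median of -2.34. The highest values, -0.19 for a Dcn probe and -0.07 for an Fbln5 probe, came from probes with 0 EpH4-PR spots well above background. Their sign is not read, and the other 11 probes lay at -0.72 or below. Lower levels were called for 8 probes of 7 genes (Efemp1, Dcn, Ogn, Efemp2, Fbln5, Fbln1 and Bgn), where 3.83% of all probes were called lower. Higher levels were called for 0 member probes, where 2.26% of all probes were called higher. These counts come from the contrast by which the set was chosen, so nothing is read from them. On all 3 arrays, 11 member probes, at least 1 for every gene, had EpH4-PR spots well above background, against 68.9% of all probes. The same 11 had this in both channels, against 62.5% of all probes, and any probe with all its spots well above background in both channels is called a measured probe from here on.

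**Figure D1:**
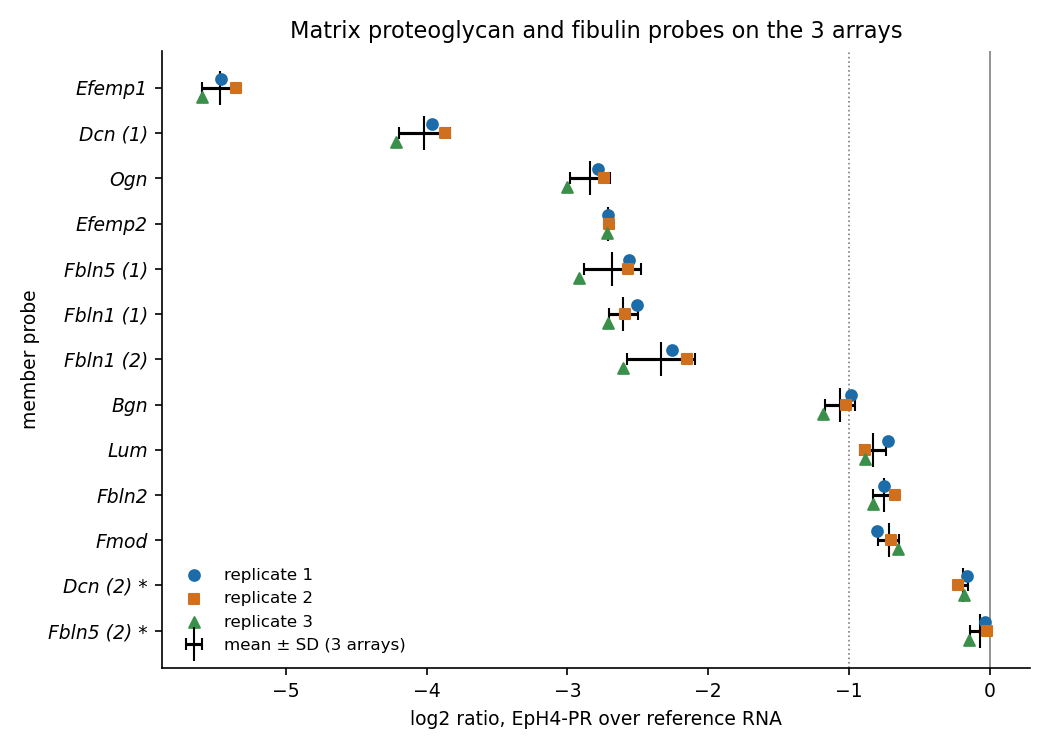
Log2 ratio, EpH4-PR over reference (x axis), for each member probe (y axis). Points are the 3 arrays, bars the mean ± SD, the dotted line a log2 ratio of -1, and an asterisk a probe with 0 EpH4-PR spots well above background. Efemp1 lay lowest at -5.47, and Bgn, Lum, Fbln2 and Fmod lay between -1.06 and -0.72.

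Among the proteoglycans, the collagen-binding decorin (Dcn) was the lowest. Its RefSeq probe (A_51_P334104) had log2 ratios of -3.96, -3.87 and -4.22 on replicates 1, 2 and 3 (mean -4.02 ± 0.18, SD, n = 3 arrays), which is 16.2-fold lower than the reference RNA. Its spot read 144, 135 and 106 in the EpH4-PR channel and 985, 888 and 919 in the reference channel before background correction. The reference readings lay far above the negative control spots of that channel, and the EpH4-PR readings lay closer to theirs. The other Dcn probe (A_52_P252726), designed on a cDNA clone and not on the RefSeq transcript, had 0 EpH4-PR spots and 1 reference spot well above background, so it gives no fold.

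Osteoglycin or mimecan (Ogn), a keratan sulfate proteoglycan of bone and connective tissue, came next. Its log2 ratios were -2.78, -2.74 and -3.00, a mean of -2.84 ± 0.14 (SD, n = 3), or 7.16-fold lower. The EpH4-PR spot read 188, 201 and 206 (623, 633 and 725 in the reference channel), well over the negative control spots, so the transcript was detected in these cells although it was scarcer than in the reference RNA.

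Biglycan (Bgn), the closest relative of decorin, had log2 ratios of -0.98, -1.02 and -1.19, a mean of -1.06 ± 0.11 (SD, n = 3). This is 2.09-fold lower and close to the threshold for a call, and the log2 ratio was -0.75 under median centring, -1.78 with a normexp offset of 0 and -1.99 with the log ratio of the scanner software. The EpH4-PR spot of Bgn read 113, 120 and 96.0 and the reference spot 201, 203 and 170. Negative control spots also read higher in the reference channel, so these readings by themselves do not show a lower level.

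Lumican (Lum) and fibromodulin (Fmod), keratan sulfate proteoglycans that share a binding region on collagen fibrils, were below the reference RNA by less than the threshold for a call. Lum had log2 ratios of -0.72, -0.88 and -0.89 (mean -0.83 ± 0.09, SD, n = 3). Fmod had log2 ratios of -0.80, -0.70 and -0.65 (mean -0.72 ± 0.08, SD, n = 3). Their spots were dim in both channels, with EpH4-PR readings of 84.8 to 103 for Lum and 90.5 to 120 for Fmod and reference readings of 144 to 182 and 134 to 191. With a normexp offset of 0 their log2 ratios were -1.56 and -1.28, and with the log ratio of the scanner software -1.75 and -1.34, so the size of both depends on how dim spots are treated.

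Among the fibulins, Efemp1 (fibulin-3), a secreted protein of elastic tissue and basement membrane, had the lowest ratio. Its probe (A_51_P337412) gave -5.46, -5.35 and -5.60 on replicates 1, 2 and 3 (mean -5.47 ± 0.12, SD, n = 3), or 44.3-fold lower than the reference RNA. In the EpH4-PR channel the spot read 102, 97.3 and 82.3, where 95% of negative control spots read below 85.9, 87.4 and 62.9. In the reference channel it read 1792, 1619 and 1715. The EpH4-PR signal was therefore above nearly all negative control spots on every array, but by a small margin, and the fold moved from 22 under median centring to 118 with a normexp offset of 0 and 139 with the log ratio of the scanner software. Among all measured probes called lower, Efemp1 ranked 3 of 1458 from the lowest. The 5 probes with the nearest log2 ratios over the 3 arrays by Euclidean distance were those of Serpinf1 (mean -5.53, distance 0.113), Egr1 (-5.33, 0.271), Col3a1 (-5.10, 0.651), Ighg (-5.09, 0.671) and Ctss (-5.05, 0.725). Serpinf1 lay just below Efemp1 and Egr1 just above it, at ranks 2 and 4 of all probes.

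Efemp2 (fibulin-4), which is needed for elastic fibre assembly and recruits lysyl oxidase, was much closer to the reference RNA than its relative Efemp1. Its log2 ratios were -2.71, -2.70 and -2.72, a mean of -2.71 ± 0.01 (SD, n = 3), or 6.54-fold lower, with the smallest spread of the measured member probes. The EpH4-PR spot of Efemp2 read 474, 451 and 504 (1218, 1176 and 1279 in the reference channel), so this fibulin was plainly detected.

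Fbln5, which binds elastin and integrins, and Fbln1, which binds fibronectin and basement membrane proteins, had ratios like that of Efemp2. The Fbln5 probe A_51_P186703 gave -2.56, -2.57 and -2.92 (mean -2.68 ± 0.20, SD, n = 3), or 6.42-fold lower, from EpH4-PR readings of 165, 160 and 134 and reference readings of 502, 488 and 502. The other Fbln5 probe (A_52_P278336) had 0 EpH4-PR spots and 1 reference spot well above background, so it gives no fold. The 2 Fbln1 probes gave -2.50, -2.59 and -2.71 (mean -2.60 ± 0.10, SD, n = 3) and -2.26, -2.15 and -2.61 (mean -2.34 ± 0.24, SD, n = 3), both of them called and with ranges that overlapped. The EpH4-PR spots of Fbln1 read 117 to 146 and 77.8 to 106, against 402 to 462 and 301 to 319 in the reference channel.

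Fbln2, a fibulin of basement membranes and elastic fibres, stood apart by its bright EpH4-PR spot, which read 2201, 2087 and 1995 against 1322, 1227 and 1276 in the reference channel. Its log2 ratios after loess were -0.75, -0.67 and -0.83, a mean of -0.75 ± 0.08 (SD, n = 3), and it was not called. The direction of this ratio depended on the normalization: the EpH4-PR spot was the brighter one on every array before normalization, and the mean log2 ratio was -0.82 with the log ratio of the scanner software but 0.60 under median centring. The data thus place Fbln2 as plainly detected in EpH4-PR cells and leave its direction against the reference RNA unsettled. The other 12 member probes lay below 0 under every alternative that was run. For the Dcn and Fbln5 probes that give no fold, this sign is not read.

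**Figure D2:**
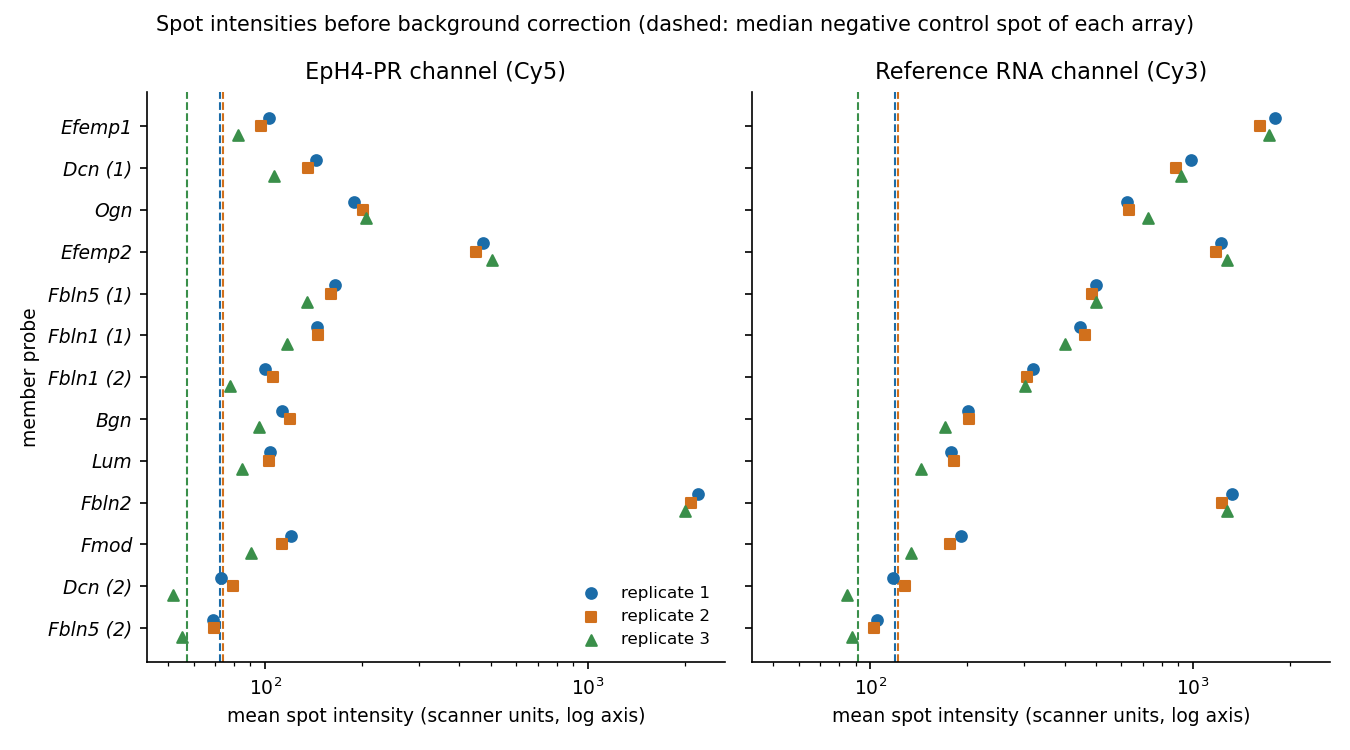
Mean spot intensity before background correction (x axis, log scale, scanner units) of each member probe (y axis) in the EpH4-PR channel (left) and the reference channel (right). Points are the 3 arrays and dashed lines the median negative control spot of each array. Fbln2 and Efemp2 are the brightest in the EpH4-PR channel, and Efemp1 reads 82.3 to 102 there against 1619 to 1792 in the reference channel.

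In the order of the mean ratios, the gap from Efemp1 to Dcn (1.46 log2 units) and that from Dcn to Ogn (1.17) exceeded the larger SD of each pair (0.18). Ogn, Efemp2, Fbln5 and the lower of the Fbln1 probes followed within 0.13 log2 units of their neighbour, less than the larger SD of each pair. The other Fbln1 probe lay 0.26 log2 units further, with an overlapping range. A gap of 1.27 then separated it from Bgn, with no overlap. Bgn lay 0.23 below Lum, more than the larger SD of 0.11, while Lum, Fbln2 and Fmod followed one another within the larger SD and with overlapping ranges. Fibulins had a median log2 ratio of -2.60 over 7 probes and small leucine-rich proteoglycans one of -0.95 over 6 probes. Each median includes a probe that gives no fold, and the difference was not tested. In 10 of the 11 measured member probes the lowest of the 3 ratios was that of replicate 3, the exception being Fmod. Replicate 3 also gave the lowest ratio in 69.6% of all measured probes called lower. Over all measured probes with a ratio on every array this share was 46.8%. Without replicate 3 the member median was -2.20.

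Efemp1 and Dcn were the lowest 2 genes under median centring, with a normexp offset of 0 and with the log ratio of the scanner software, but the size of the differences changed. Dcn was 8.31-fold lower under median centring and 33.8-fold lower with the log ratio of the scanner software. Ogn was 3.65-fold and 10.8-fold lower under the same settings. Efemp2, whose spots were brighter, was 2.82-fold lower under median centring and 7.78-fold lower with the software's ratio. The Fbln5 probe A_51_P186703 was 3.55-fold lower under median centring and 10.9-fold lower with the software's ratio. The dimmer Fbln1 probe was 3.54-fold lower under median centring and 14.5-fold lower with the software's ratio. Under median centring, with a normexp offset of 0 and with the software's ratio, this Fbln5 probe and both Fbln1 probes lay below Efemp2.

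**Figure D3:**
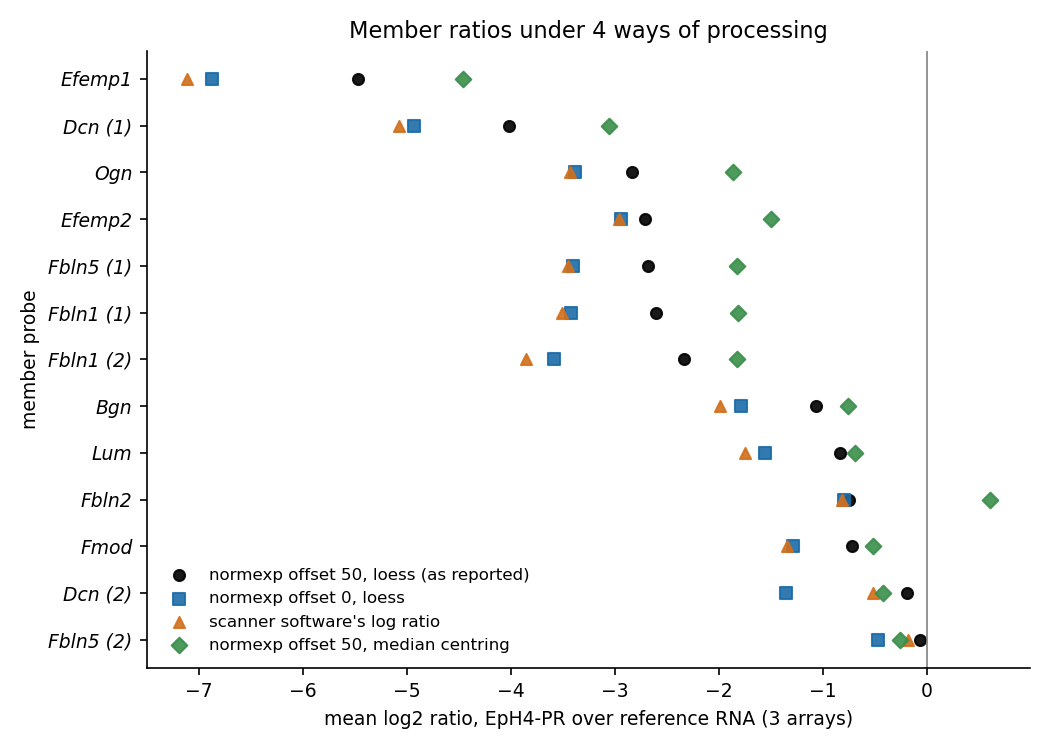
Mean log2 ratio over the 3 arrays (x axis) of each member probe (y axis) under 4 ways of processing. Efemp1 ranged from -7.12 with the log ratio of the scanner software to -4.46 under median centring, and Fbln2 is the only probe with a value above 0, at 0.60 under median centring.

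Dcn, Lum, Fmod and Ogn have other small leucine-rich proteoglycan genes as chromosomal neighbours. On chromosome 10 Lum lies between Dcn and Kera, with Epyc beyond it. Kera, which encodes the corneal proteoglycan keratocan, had a log2 ratio of 0.10 ± 0.13 (SD, n = 3), and its probe had 1 reference spot well above background. The measured Epyc probe had one of 0.08 ± 0.15 (SD, n = 3). Neither was called, while Dcn in the same cluster lay at -4.02. On chromosome 1 Prelp, which anchors basement membrane to connective tissue, is the neighbour of Fmod, and its probe A_52_P486260 was called at -1.77 ± 0.13 (SD, n = 3) while its other probe lay at -0.11. Optc, beyond Prelp, had a measured probe at 0.03 ± 0.08 (SD, n = 3) that was not called. On chromosome 13 Omd and Aspn, the neighbours of Ogn, had 0 EpH4-PR spots but 3 reference spots well above background. Their log2 ratios, from dim EpH4-PR spots, were -0.68 and -0.78. Neither was called.

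Of the other small leucine-rich proteoglycans on the list used, 1 of 16 probes was called lower (Prelp) and 0 higher, with a median log2 ratio of -0.22. With a normexp offset of 0 these counts were 5 lower and 1 higher (median -0.62), and with the log ratio of the scanner software 4 lower and 0 higher (median -0.63). Of the fibulin relatives, Fbln7 had a log2 ratio of -0.76 ± 0.22 (SD, n = 3) and was not called, and the probe of Hmcn1 (hemicentin) had 0 EpH4-PR spots well above background. Fbln7 lay at -1.20 both with a normexp offset of 0 and with the log ratio of the scanner software. Under each of these settings 1 probe of the fibulin relatives was called lower. Large matrix proteoglycans had 1 of 17 probes called lower, a probe of versican (Vcan) at -1.11 ± 0.09 (SD, n = 3) with 2 EpH4-PR spots well above background, named after its values were seen.

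Genes that work with fibulins in elastic fibres were lower in several cases. Of 22 probes of 15 such genes, 8 probes of 8 genes were called lower and 0 higher, with a median log2 ratio of -0.56, where 3.83% of all probes were called lower. Under median centring 4 of these probes were called lower and 2 higher, and with the log ratio of the scanner software 13 lower and 0 higher. The lowest measured probes among them were those of Lox, the lysyl oxidase that crosslinks elastin and collagen, at -3.15, -3.11 and -3.37 (mean -3.21 ± 0.14, SD, n = 3) and Emilin2 at -2.09, -2.10 and -2.34 (mean -2.18 ± 0.14, SD, n = 3), while the other Emilin2 probe, also measured, lay at -0.50 and was not called. Fibrillin-1 (Fbn1), the core protein of microfibrils, had a called probe at -2.59. This became -2.24 under median centring, -4.63 with a normexp offset of 0 and -5.51 with the log ratio of the scanner software. This probe had 0 EpH4-PR spots well above background, so it gives no fold. The other Fbn1 probe, with 1 EpH4-PR spot well above background, lay at -0.62 and was not called. Ltbp1, Ltbp2 and Loxl2 likewise had a called probe and another that was not called, at 0.10, 0.46 and -0.32. That Loxl2 probe had 0 EpH4-PR spots well above background. Elastin itself (Eln) lay at -0.02 ± 0.14 (SD, n = 3). This list was not compared with others by a test.

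Cell surface proteoglycans went both ways. Of 21 probes, 5 were called lower and 1 higher, with a median of -0.03, which became 1 lower and 4 higher under median centring. Syndecan-2 (Sdc2) gave -1.88, -1.95 and -2.01 (mean -1.95 ± 0.07, SD, n = 3) and glypican-1 (Gpc1) gave -1.11, -1.23 and -1.12 (mean -1.15 ± 0.07, SD, n = 3), but under median centring Sdc2 lay at -0.88, short of a call, and Gpc1 changed sign to 0.25. Syndecan-4 (Sdc4), a partner of integrins at focal adhesions, had the only higher call, at 1.80, 1.81 and 1.85 (mean 1.82 ± 0.02, SD, n = 3), while its other probe lay at 0.64 and was not called.

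The enzymes that build the sugar chains of these core proteins were mostly near the reference RNA. Chondroitin and dermatan sulfate enzymes had 2 of 34 probes called lower and 0 higher (median -0.09), and neither called probe was a measured one. These counts were 1 lower and 5 higher under median centring, 3 lower and 4 higher with a normexp offset of 0, and 3 lower and 5 higher with the log ratio of the scanner software. Keratan sulfate enzymes had 1 of 11 probes called lower and 0 higher (median -0.04). That probe belongs to Chst1, which sulfates the galactose of keratan sulfate, and it gave -3.45, -3.41 and -3.50 (mean -3.45 ± 0.04, SD, n = 3). Among proteases and enhancers that process matrix proteins, 3 of 14 probes were called lower and 0 higher, and of these only that of Pcolce, the enhancer of procollagen C-proteinase, was measured (-1.58, -1.57 and -1.48, mean -1.54 ± 0.06, SD, n = 3, or -0.08 under median centring). For this list median centring turned the balance, with 1 probe called lower and 3 higher. Receptors that decorin and biglycan bind had 0 of 16 probes called either way (median -0.05), although 14 of them had all 3 EpH4-PR spots well above background. The medians of the chondroitin and dermatan sulfate enzymes and of the receptors changed sign under median centring, to 0.25 and 0.30.

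**Figure D4:**
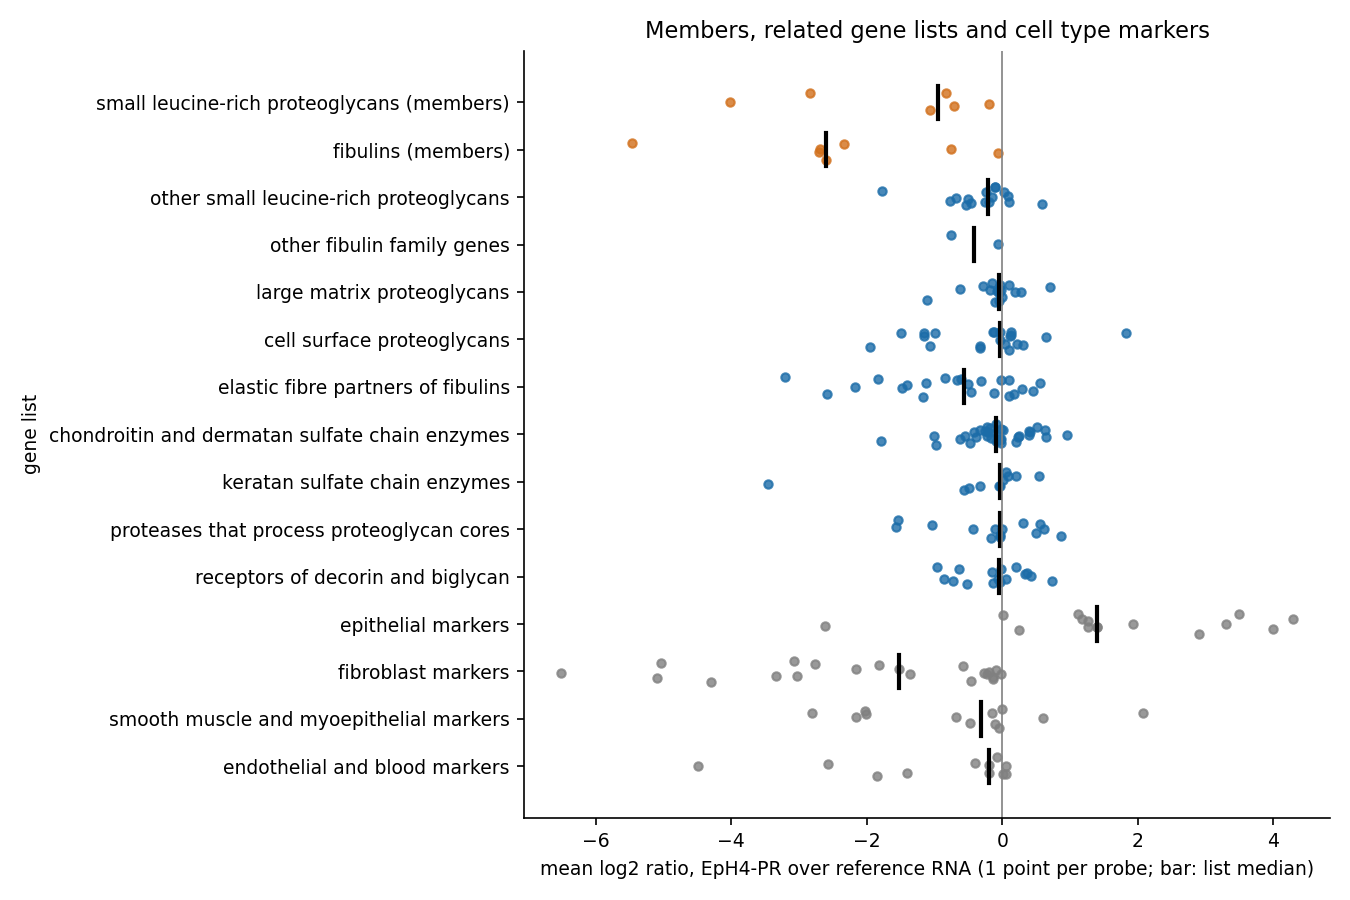
Mean log2 ratio, EpH4-PR over reference (x axis), of every probe, by gene list (y axis). Each point is a probe, black bars are list medians, orange marks the members, blue related lists and grey cell type markers. List medians of related genes run from -0.56 for elastic fibre partners to -0.03, and those of markers from -1.52 for fibroblasts to 1.40 for epithelium.

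The epithelial label was checked against markers. Of 15 probes of 11 epithelial genes, 12 probes of 10 genes were called higher, among them E-cadherin (Cdh1) at 4.29 ± 0.10 (SD, n = 3), and 1 was called lower, the keratin Krt19 at -2.62 ± 0.18 (SD, n = 3). Of 21 probes of 13 fibroblast genes, 12 probes of 11 genes were called lower and 0 higher. The other 9 were not called, and 4 probes had 0 EpH4-PR spots well above background, among them the only probe of Fap. Measured probes of Twist1, Pdgfra and Col3a1 lay at -0.02, -0.09 and -0.14, while other probes of Pdgfra and Col3a1 were called lower. The summed normalized intensity of the fibroblast probes was 10500 to 10900 in the EpH4-PR channel and 130000 to 133000 in the reference channel. That of the epithelial probes was 86700 to 91800 and 23800 to 24200. The called fibroblast markers thus moved in the same direction as most members, and their part in the member ratios was not tested. Smooth muscle and myoepithelial markers had 4 of 12 probes called lower and 1 higher, and endothelial and blood markers 4 of 11 lower and 0 higher. The lower probes of the latter list were all of blood markers (Ptprc, Adgre1 and Cd68), and no endothelial probe was called. In RNA from whole cultures, fewer cells of a type and less RNA per cell cannot be told apart, and the cell make-up of the reference RNA is not given in the labels.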

How the data were processed

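The 3 Agilent arrays have 2 colours, with EpH4-PR RNA in Cy5, and each lies on a slide of its own. Arrays were grouped by their titles. The authors deposited scanner output (Agilent Feature Extraction 8.1.1.1) with the intensity and local background of each spot in both channels and the software's log10 ratio (Cy5 over Cy3), before normalization between arrays. The authors also deposited a table of log ratios, folds, p-values and 1 intensity per side for listed probes, whose sides it does not name; it was not used here.

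Mean intensities were corrected with normexp (offset 50) and normalized by loess in limma 3.58.1 (R 4.3.3). Control spots were left out after correction, as were outlier spots (150, 18 and 3 on replicates 1, 2 and 3), and spots of a probe were averaged. The log2 ratio was tested against 0 with lmFit and eBayes over 41171 probes, which supplied the calls (a log2 ratio of at least 1 in size, with an adjusted p under 0.05), and the fit was tested on simulated data. Precision is limited by the number of arrays, and the offset shrinks ratios of dim spots. Ratios of probes with 0 EpH4-PR spots well above background rest on dim signal and are open to dye bias. For these probes a bound against the lowest signal well above background, after Aquantile, equalled the plain ratio. It is therefore not given as a minimum.

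Current symbols came from RefSeq accessions (GRCm38.p6 table, 21437 of 23705 matched); promoters came from RefSeq. No probe coordinates are given, since the genome build of the arrays is not given in the sources used here. Members and lists were chosen with earlier results of these data known. Named from each related list were up to 2 lowest and 2 highest called probes well above background in both channels. Also named were the 5 nearest patterns to Efemp1, Pgr and the genes of lists with fewer than 4 genes. Neighbours, markers, Vcan, Fbn1, Eln, Ltbp1, Ltbp2 and Loxl2 were named after their values were seen. Alternatives covered background correction, normalization, spot summary, outliers, a dim-probe filter, the methods' t-test, an intensity trend, leaving out single arrays and, chosen after the values were seen, the negative control spots as background.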

Additional observations from a re-analysis of the deposited data

How the results depend on the processing

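The number of member probes called lower was 8 and stayed between 7 and 10. It was 7 under median centring, where Bgn was not called, and 10 with a normexp offset of 0 and with the log ratio of the scanner software, where Lum and Fmod were. Higher calls among members stayed at 0 and member probes with all EpH4-PR spots well above background at 11 under the alternatives run for them. The median member ratio (-2.34) moved to -1.50 under median centring, -2.94 with a normexp offset of 0 and -2.96 with the log ratio of the scanner software. It was -2.60 with the filter on dim probes, which leaves fewer member probes, and -1.74 with probes averaged per gene. All probes called higher numbered 7031, 3125 and 3616, and lower 708, 3905 and 3887, under median centring, normexp offset 0 and the scanner software. An offset of 0 by construction shrinks ratios of dim spots less; for the other changes the cause was not tested. Of 128 member probe ratios under alternatives, 91 moved by less than the SD between arrays and 37 by more, and the Fbln2 ratio changed sign under median centring. Gpc1, called lower, changed sign to 0.25 there too. The negative control spots as background, chosen after the values were seen, left 8 member probes called. With the methods' t-test, 929 probes were higher and 1577 lower at its threshold, or 897 and 1547 after Benjamini-Hochberg adjustment, with 8 member probes lower in either case. Each slide holds 1 array, so a slide block was not run. No paired analysis was possible because the arrays form a single group.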
